A study of Drosophila simulans with 12 samples.

Results

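Cytochrome P450 genes were compared between males of a sterile and a fertile Drosophila simulans line, in testis and in abdomen. Members were all probe sets whose single gene symbol in the platform annotation starts with Cyp and a digit. The array used for testis held 85 such probe sets of 83 genes among 18769 probe sets, and the array used for abdomen held 87 probe sets of 83 genes among 14010. Cyp1 and Cyp40 meet the rule by name but encode cyclophilins, which are peptidyl-prolyl isomerases and not P450 enzymes. They are given apart, which leaves the same 81 P450 genes on each array. Of these, 22 belong to the Cyp4 family, 23 to Cyp6, 5 to Cyp9, 6 to Cyp12, 4 to Cyp28 and 21 to other families.

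The sterile and the fertile line both carry a segment of the D. mauritiana X chromosome in a D. simulans background. Per the series design, the origin of about 3 Kb with OdsH exons 3 to 4, from a homeobox gene with a known role in hybrid male sterility, is what separates the lines. The 4 groups were sterile testis, fertile testis, sterile abdomen and fertile abdomen, with 3 arrays each from 3 RNA extractions of males aged 3 to 4 days. On average 150 males per line were dissected for testis and 50 for abdomen, so each extract pools many animals. Since 1 sterile line was set against 1 fertile line, line and introgressed stretch cannot be told apart. The labels do not give the extractions separate cultures, and the spread behind each p-value may therefore be technical.

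P450 enzymes are heme proteins that insert an oxygen atom into small hydrophobic molecules, with electrons supplied by a reductase in the endoplasmic reticulum or by ferredoxin in mitochondria. In insects, Cyp6, Cyp9 and Cyp28 genes are best known for the metabolism of plant toxins and insecticides, and Cyp4 genes for the oxidation of fatty acids, hydrocarbons and some xenobiotics. Cyp12 enzymes are mitochondrial. Gut, Malpighian tubule and fat body are the usual main sites of detoxifying P450 expression in flies, and a few other P450 enzymes make or inactivate the moulting hormone ecdysone.

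A probe set summarises several short probes against a transcript, and its intensity has no absolute unit, so levels were not compared between probe sets. The median intensity per array was 212 to 216 in sterile and 219 to 222 in fertile testis, and 213 to 220.4 in sterile and 208 to 222.5 in fertile abdomen. Residual SDs (log2, median over probe sets) were 0.05 for testis arrays and 0.30 for abdomen arrays. Germline transcripts were bright in testis of either line: summed over 19 marker genes, the intensity per array was 89077 to 90398 in sterile and 90286 to 90978 in fertile testis, and none of these genes was called absent throughout a line. Digestive enzyme transcripts of the midgut, another tissue, differed widely. Their sum over 25 genes was 3321 to 3507 in sterile and 20856 to 20993 in fertile testis, and 14 of the 25 were called absent on all sterile arrays, against 3 on all fertile arrays. Of the 13 that were tested, 10 passed the filter only through the fertile arrays. The 3 present on all 6 arrays fell, with log2 fold changes (sterile over fertile) of -4.08 for yip7, -3.54 for Bace and -2.79 for Jon74E. The part of this gut signal in the P450 results below was not tested.

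Most P450 genes tested in testis were lower in the sterile line. Of the 81 genes, 48 passed the filter, which asked for the authors' present call on all 3 arrays of at least 1 line, and 29 of these 48 were lower in sterile testis (60.4%), where 37.8% of all 9927 tested probe sets were lower. Another 9 were higher (18.8%), against 22.6% of all probe sets, and 10 did not pass the test. An unadjusted p under 0.05 was found for 38 of the 48, and for 63.7% of all tested probe sets. A gene was called when its Benjamini-Hochberg adjusted p in limma, over all tested probe sets, was under 0.05. The median log2 fold change, sterile over fertile, was -0.23 for the P450 genes and -0.04 for all tested probe sets. In whole tissue, fewer cells of a type and less RNA per cell cannot be told apart.

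The filter let 5 P450 genes pass only through the sterile and 6 only through the fertile arrays. Among the 37 present on all 6 arrays, 24 were lower and 6 higher, with a median of -0.34. The share of all probe sets present on all 6 arrays that were lower was 39.5%, and the share that were higher was 23%. Falls of 0.5 log2 or more were called for 16 of the 48 P450 genes, against 6.71% of all tested probe sets. Rises of that size were called for 2 of the 48, against 3.53% of all tested probe sets. The sterile arrays all lay below the fertile arrays for 30 of the 48 genes (40% of all tested probe sets) and all above them for 10 (24.3%), and the lines overlapped for 8. The 33 P450 genes that were not tested had line means of 31.7 to 598, and 20 of the 81 genes were called absent on all 6 arrays. Present on all 6 testis arrays were 15 of 23 Cyp6 genes and 8 of 22 Cyp4 genes.

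**Figure D1:**
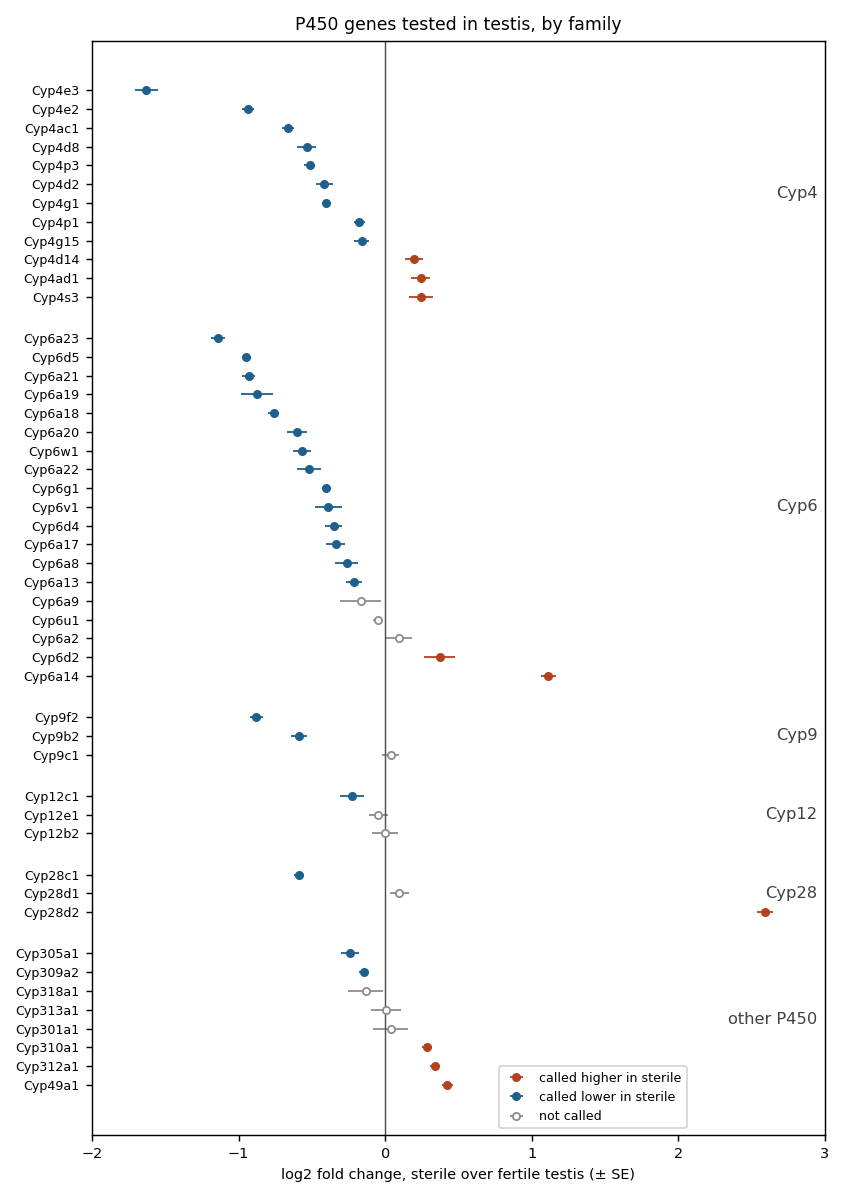
Log2 fold change, sterile over fertile testis (x axis) for the 48 P450 genes tested, grouped by family down the page; points are limma estimates and bars are ± SE over 3 arrays per line, red where called higher, blue where called lower and open where not called. In Cyp4 and Cyp6 most points lie left of 0, and Cyp28d2 stands farthest to the right at 2.59.

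The plot of testis fold changes by family shows the spread within each family, to be read against the 37.8% of all tested probe sets that were lower and the 22.6% that were higher. The counts include the 11 genes that passed the filter through 1 line only. All 12 tested Cyp4 genes were called, 9 lower and 3 higher, with a median log2 fold change of -0.41. Of 19 tested Cyp6 genes, 14 were lower and 2 higher, with a median of -0.39, and within it the Cyp6a subfamily had 9 of 12 lower and 1 higher. Cyp9 had 2 of 3 lower, Cyp12 had 1 of 3 lower, and Cyp28 had 1 lower, 1 higher and 1 not called. The other families had 2 lower and 3 higher of 8. Several subfamilies are gene clusters of close copies, and hybridisation of 1 copy to the probes of another was not tested. No test compared the families with each other.

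Within Cyp4, Cyp4e2 measured 359.7, 374 and 386 on the sterile arrays, against 761, 715 and 710.4 on the fertile arrays, and its log2 fold change was -0.94 ± 0.04 (SE, limma adjusted p = 1.4e-11). It was present on all 6 arrays, and its lines did not overlap. Cyp4e3, of the same subfamily, is a gene of the Malpighian tubule linked to permethrin tolerance in D. melanogaster. Its testis intensity was 83.8, 92.8 and 110.2 on the sterile arrays, against 327, 324 and 332 on the fertile arrays, a log2 fold change of -1.63. It was called present on 33% of the sterile and all fertile arrays, so it passed the filter only through the fertile arrays, which favours a lower sterile value. Its size also depends on the pseudocount, from -1.30 to -1.78 over the alternatives.

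Cyp4ac1 measured 575, 524 and 531 on the sterile arrays, against 875, 836 and 893 on the fertile arrays, and Cyp4p3 measured 483, 478 and 475 on the sterile arrays, against 681, 686 and 707 on the fertile arrays. The lines were separate for both, with log2 fold changes of -0.66 ± 0.04 (adjusted p = 7.18e-10) and -0.52 ± 0.04 (adjusted p = 4.11e-09). Cyp4d8 was called absent on all sterile and present on all fertile arrays, at 184, 188 and 181 in sterile and 299, 259 and 267 in fertile testis, so it too passed only through the fertile arrays, and no fold is given. Cyp4g1, the oenocyte enzyme that makes cuticular hydrocarbons, had 3344, 3504 and 3412 on the sterile arrays, against 4418, 4639 and 4528 on the fertile arrays. It fell by 0.40 on the log2 scale (adjusted p = 2.34e-10), while of 3 tested oenocyte markers 1 was lower (Hnf4, also listed among the xenobiotic regulators below) and the sum of the 5 on the array was 3775 to 4079 in sterile and 4003 to 4248 in fertile testis. The smaller falls were those of Cyp4d2 (-0.42), Cyp4p1 (-0.18) and Cyp4g15 (-0.16). Cyp4g15 was not called after median centring (-0.11, adjusted p = 0.0575) or quantile normalization (-0.10, adjusted p = 0.0907). The 3 Cyp4 genes called higher, Cyp4d14, Cyp4ad1 and Cyp4s3, changed by 0.19 to 0.25. Cyp4ad1 passed the filter only through the sterile and Cyp4s3 only through the fertile arrays. The call of Cyp4d14 was lost without the second sterile (0.12, adjusted p = 0.079) or the third fertile array (adjusted p = 0.0595), and that of Cyp4s3 without the third sterile (adjusted p = 0.0532) or the second fertile array (adjusted p = 0.0627).

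Within Cyp6, the genes that fell most were Cyp6a23, Cyp6d5 and Cyp6a21. Cyp6a23 measured 305, 282 and 289 on the sterile arrays, against 629, 676 and 685 on the fertile arrays, and its log2 fold change was -1.14 ± 0.05 (SE, adjusted p = 4.06e-12). Cyp6d5 measured 746, 783 and 755 on the sterile arrays, against 1459.7, 1517 and 1475 on the fertile arrays, with -0.95 ± 0.03 (adjusted p = 1.71e-13). Cyp6a21 measured 295, 306 and 299 on the sterile arrays, against 583, 582 and 596 on the fertile arrays, with -0.93 ± 0.04 (adjusted p = 1.23e-11). In each of these genes the sterile arrays differed from each other by far less than from the fertile arrays, and all 6 calls were present.

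Cyp6a18 had 669, 670.3 and 639 on the sterile arrays, against 1128, 1165 and 1095 on the fertile arrays, a log2 fold change of -0.76. Cyp6a20, which affects male aggression in D. melanogaster, had 110.4, 114 and 121 on the sterile arrays, against 182, 179.9 and 187 on the fertile arrays, a log2 fold change of -0.60. Both genes were separated by line and present on all 6 arrays. Cyp6w1 had 153, 146 and 149 on the sterile arrays, against 236, 220.1 and 230.3 on the fertile arrays and a log2 fold change of -0.57. Dimmer genes of the family also fell: Cyp6a19, with 59.3, 66.5 and 52.9 on the sterile arrays, against 139, 124 and 106 on the fertile arrays, changed by -0.87, and Cyp6a22, with 101, 92.5 and 92 on the sterile arrays, against 147, 135 and 150 on the fertile arrays, by -0.52. Cyp6a19 passed the filter only through the sterile arrays, although it was the dimmer there. It had the widest spread of these, with SE 0.11, and its change depends on the pseudocount, from -0.59 to -1.03 over the alternatives.

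Cyp6a14 was the 1 Cyp6a gene called higher in sterile testis. It measured 373, 391 and 391 on the sterile arrays, against 170.1, 170.3 and 167 on the fertile arrays, and its log2 fold change was 1.11 ± 0.05 (SE, adjusted p = 2.24e-11). The sterile arrays all lay above the fertile arrays, and the spread within a line was small beside the gap. Cyp6d2 measured 88.6, 116 and 97.8 in sterile and 76.2, 67.2 and 78.5 in fertile testis, a log2 fold change of 0.37, but it was present on 33% of the fertile arrays and passed the filter only through the sterile arrays, where it was high.

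**Figure D2:**
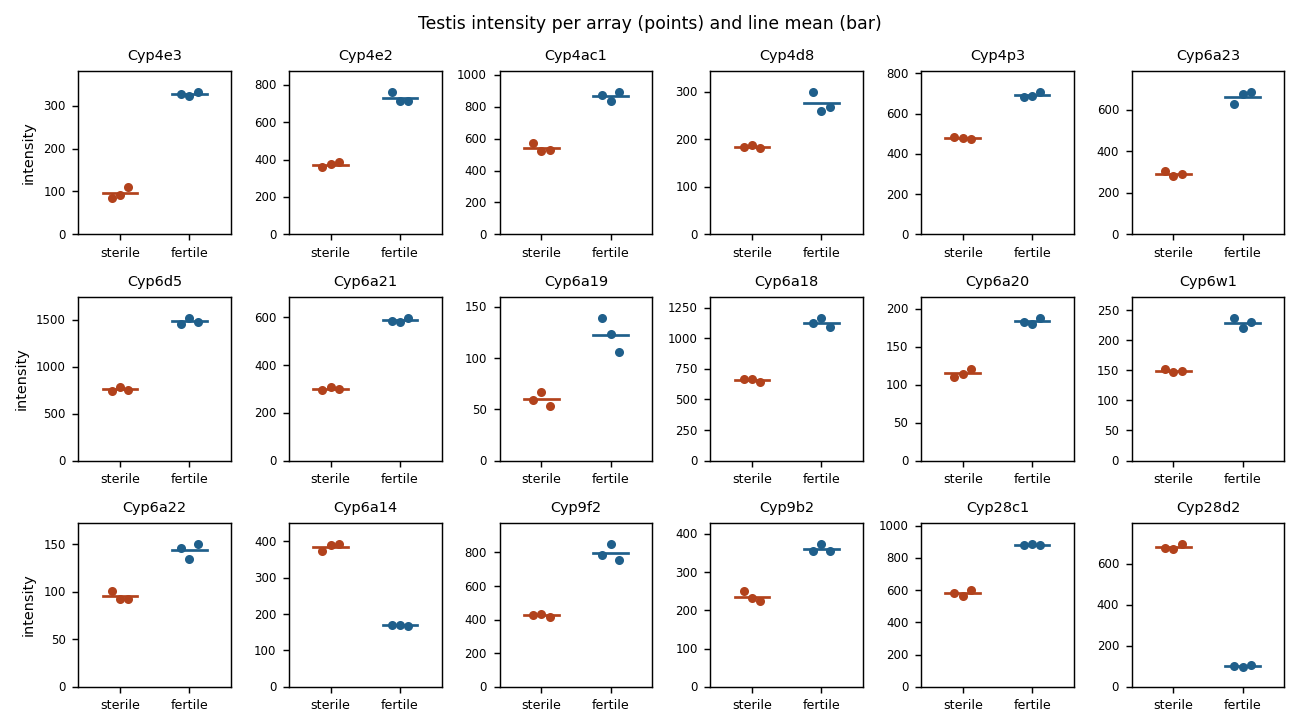
Testis intensity (y axis, from 0, own scale per gene) on the 3 sterile and 3 fertile arrays for the 18 P450 genes called with a log2 fold change of at least 0.5 in size; points are arrays and bars are line means. Sterile and fertile points do not overlap in any of the 18, and sterile is above fertile only in Cyp6a14 and Cyp28d2. The genes were chosen by their calls on these same arrays, which favours such separation. Of all tested probe sets, the sterile arrays lay all below the fertile ones for 40% and all above them for 24.3%.

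Of the best studied detoxification genes of Cyp6 and Cyp12, Cyp6g1 fell, Cyp6a2 did not pass and Cyp12d1-d was not tested. Cyp6g1, whose overexpression gives resistance to DDT and neonicotinoids, measured 1341, 1337 and 1337 on the sterile arrays, against 1817, 1696 and 1811 on the fertile arrays, and it fell by 0.40 on the log2 scale (adjusted p = 5.07e-09). Cyp6a2, another insecticide-metabolising enzyme, measured 90.2, 91.5 and 89.6 on the sterile arrays, against 81.1, 85.7 and 84.4 on the fertile arrays, a log2 fold change of 0.09 with a 95% interval of -0.09 to 0.28 that did not pass (adjusted p = 0.377). Cyp6a8, which caffeine and barbital induce in D. melanogaster, had a log2 fold change of -0.26, but it was present on 33% of the sterile arrays and passed the filter only through the fertile ones. Its call was lost without the first sterile (-0.19, adjusted p = 0.0526) or the first fertile array (adjusted p = 0.052). Cyp12d1-d, an insecticide-inducible mitochondrial enzyme, was below the filter, with 203, 213 and 202 in sterile and 233, 222 and 213 in fertile testis. The probe sets shared by Cyp12d1-d and Cyp12d1-p, and by Cyp6v1 and shn, were left out because they name 2 genes.

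In Cyp9, Cyp9f2 measured 428, 433 and 416 on the sterile arrays, against 785, 848 and 758 on the fertile arrays, and its log2 fold change was -0.88 ± 0.04 (SE, adjusted p = 3.83e-11). Cyp9b2 measured 250, 233 and 223 on the sterile arrays, against 354, 372 and 356 on the fertile arrays, with -0.59 ± 0.05, and Cyp9c1 measured 243, 260.2 and 258 in sterile and 239, 242 and 259.6 in fertile testis and was not called. Both called genes were separated by line, while the Cyp9c1 arrays overlapped. In Cyp12, Cyp12c1 was the called gene, at 147, 119 and 146 in sterile and 169, 155 and 166 in fertile testis. Its log2 fold change of -0.23 (adjusted p = 0.0266) did not pass without the second sterile array (-0.14, adjusted p = 0.139), without the first (adjusted p = 0.0897) or the third fertile array (adjusted p = 0.0745), nor after either rescaling of the arrays. Cyp12e1 (-0.05) and Cyp12b2 (95% interval -0.19 to 0.18) were not called.

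Cyp28d2 had the largest change of any P450 gene in testis. The Cyp28 family was described in cactus-feeding flies, where plant alkaloids induce it, and Cyp28d1 and Cyp28d2 are linked to nicotine resistance in D. melanogaster. Cyp28d2 measured 677, 671 and 693 on the sterile arrays, against 101, 94.3 and 104 on the fertile arrays, its log2 fold change was 2.59 ± 0.05 (SE, adjusted p = 4.29e-16), and it was present on all 6 arrays. Cyp28d1, its close relative, measured 223, 247 and 227 in sterile and 204, 227 and 217 in fertile testis and was not called (0.10, 95% interval -0.04 to 0.23). Cyp28c1 went the opposite way from Cyp28d2, with 582, 562 and 598 on the sterile arrays, against 877, 884 and 882 on the fertile arrays and a log2 fold change of -0.59 ± 0.04 (adjusted p = 4e-10). In the authors' deposited table, whose fold score is negative where sterile is higher, Cyp28d2 has -6.86, Cyp6a14 -2.27 and Cyp4e3 3.43, computed from the same testis arrays.

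Among the other families, Cyp49a1 had 879.8, 899 and 913 on the sterile arrays, against 685, 668 and 641 on the fertile arrays and rose by 0.42 on the log2 scale. Cyp312a1, with 2180.2, 2045 and 2026 on the sterile arrays, against 1667, 1557 and 1701 on the fertile arrays, rose by 0.34, and Cyp310a1 by 0.29. Cyp305a1 fell by 0.24 and Cyp309a2 by 0.15. Cyp301a1, a gene of cuticle formation, was called present on all sterile and absent on all fertile arrays, but its intensities overlapped, with 67.7, 55.9 and 66.9 in sterile and 61.8, 70.4 and 52.4 in fertile testis, and it was not called. Cyp18a1, which inactivates ecdysone, was below the filter in testis: its brighter probe set measured 90.9, 82.8 and 82.9 in sterile and 87.6, 118 and 83.4 in fertile testis. Its dimmer probe set, called absent on all 6 arrays, measured 45.6, 25.8 and 29.1 in sterile and -1.07, 2.82 and -0.07 in fertile testis, and no fold is given. Of the cyclophilins, Cyp1 measured 3976, 4044 and 3865 in sterile and 4494, 4460 and 4477 in fertile testis and fell by 0.18, and Cyp40 was not called (0.04).

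Genes that act with P450 enzymes were called in both directions in testis, where 37.8% of all tested probe sets were lower and 22.6% higher. Of 4 tested genes listed as electron donors, the ferredoxin genes Fdx2 (0.36) and Fdx1 (0.11) rose. The cytochrome b5 gene Cyt-b5 (-0.11) and the cytochrome b5-related gene Cyt-b5-r (-0.16) fell. Cyt-b5-r was listed by its name, and whether it donates electrons was not tested. None of the 5 ecdysone-synthesis P450 genes with other names on the array passed the filter. Of 5 xenobiotic regulators tested, 1 was higher and 3 were lower. cnc, the transcription factor of the oxidative and xenobiotic response, measured 706.5, 693 and 669.6 in sterile and 994, 1017 and 1059 in fertile testis (log2 fold change -0.56). It was present on 66% of the sterile arrays and passed the filter only through the fertile arrays, where it was high, which favours a lower sterile value. Its partner maf-S rose by 0.21. Of 20 conjugation and export genes tested, 3 were higher and 11 lower, with a median of -0.18. Among the lower ones, Ugt35A1 and Ugt50B3 passed the filter only through the fertile arrays, where they were high. Ugt304A1, also lower, passed only through the sterile arrays. The UDP-glycosyltransferase genes Ugt35E2 (-0.60) and Ugt317A1 (-0.54) and the transporter gene Mdr49 (-0.57) fell, and Ugt303B1 rose, with an absent call on all fertile arrays and no fold given.

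Markers of other tissues are given beside the same shares of all tested probe sets, 37.8% lower and 22.6% higher. The midgut sum is given above. Of 5 tested Malpighian tubule markers 2 were lower, with log2 fold changes of -2.69 for Oatp58Dc and -1.09 for Irk3, and 2 were higher, with 0.45 for Oatp58Da and 0.24 for Lkr. The sum of 7 tubule markers per array was 4893 to 5082 in sterile and 6620 to 6780 in fertile testis, and most of that gap was Oatp58Dc, with means of 237 in sterile and 1616 in fertile testis. Of 6 tested fat body markers 2 were lower and 2 higher, and the 9 on the array summed to 3172 to 3206 in sterile and 3267 to 3399 in fertile testis. Accessory gland and ejaculatory duct markers had 7 lower and 1 higher of 14 tested, and the 15 on the array summed to 70798 to 71734 in sterile and 75072 to 75349 in fertile testis. Muscle markers had 3 lower and 2 higher of 13, with sums of 14612 to 14957 in sterile and 14712 to 14809 in fertile testis. Germline markers had 5 lower and 4 higher of 18. The part of these markers in the P450 calls was not tested.

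**Figure D3:**
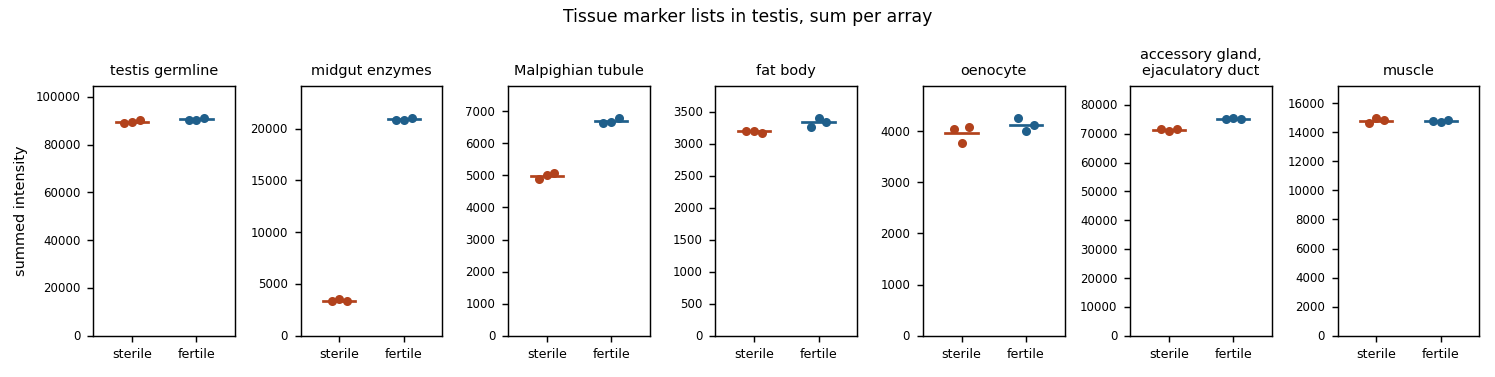
Summed testis intensity per array (y axis, from 0, own scale per panel) of the marker list of each tissue, for 3 sterile and 3 fertile arrays; points are arrays and bars are line means. The midgut enzyme sum is lower in sterile testis (3321 to 3507, against 20856 to 20993 in fertile), as is the Malpighian tubule sum (4893 to 5082, against 6620 to 6780 in fertile), most of whose gap is the gene Oatp58Dc, while the germline sums overlap.

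In abdomen, no P450 gene passed the test between the lines. Of the 81 genes, 41 reached the median intensity of all non-control probe sets and were tested, each by its brightest tested probe set, and limma called 0 of them, against 0.544% of all 6983 tested probe sets (0.258% higher and 0.286% lower). None of these 41 probe sets had an unadjusted p under 0.05, where 8.12% of all probe sets did, and in none did the 3 sterile arrays all lie on one side of the 3 fertile ones (7.02% of all probe sets below and 7.09% above). A second, dimmer probe set of Cyp9f2 did both. The median log2 fold change was 0.03. The precision was limited: the 95% interval of a gene reached a median of 0.56 to either side of its estimate, the lowest lower bound was -1.27, and the highest upper bound was 2.45. These intervals are not adjusted for the number of tests, and a call is stricter, so larger changes could also go uncalled. The second Cyp9f2 probe set, at -0.66, was not called. The lists of electron donors, xenobiotic regulators and conjugation genes had no called member in abdomen either. Of 28 midgut markers 4 were higher and 1 lower in sterile abdomen, and none of 4 tubule markers was called, with sums over 5 genes of 2318 to 2722 in sterile and 3432 to 3694 in fertile abdomen. Most of this tubule gap was Oatp58Dc, with means of 173 in sterile and 1041 in fertile abdomen, while ZnT35C had 1377 and 1261. Some testis germline markers were bright on the abdomen arrays too, and the list summed to 95730 to 124723 in sterile and 100354 to 137009 in fertile abdomen. Bright members such as Mst84Da (means of 24268 in sterile and 24818 in fertile abdomen) made up most of the sum. Of the 19 on the array 13 were tested, and others such as can (77.1 and 73.1) were below the filter. Accessory gland and ejaculatory duct markers summed to 27504 to 30042 in sterile and 42501 to 53036 in fertile abdomen. Of 9 tested, 1 was lower and 1 higher. The lower one, Mst57Da, had means of 8761 in sterile and 31445 in fertile abdomen and dominated that gap. The higher one, Acp95EF, had 4667 in sterile and 1855 in fertile abdomen. The part of this signal in the comparison of the tissues was not tested.

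By their brightest tested probe sets, the 5 P450 genes with the smallest p in abdomen were Cyp4d20, Cyp6d5, Cyp49a1, Cyp9c1 and Cyp4d8. Cyp4d20 measured 881, 678 and 984 in sterile and 711, 649 and 600 in fertile abdomen, a log2 fold change of 0.35 with a 95% interval of -0.10 to 0.81 (adjusted p = 0.738). Cyp6d5 measured 1881, 1750.4 and 2503 in sterile and 1696, 1482 and 1787 in fertile abdomen, with 0.29, and Cyp49a1 596, 527 and 674 in sterile and 584, 329.9 and 475 in fertile abdomen, with 0.39. In all 3 the ranges of the lines overlapped, but the sterile array was the higher within each replicate letter, and with the letter as a block the adjusted p was 0.543 for Cyp4d20, 0.474 for Cyp6d5 and 0.554 for Cyp49a1. Cyp9c1 measured 657, 149 and 580.1 in sterile and 443, 159.9 and 90.1 in fertile abdomen, with 0.98, and it varied more among arrays of a line than between the lines. Cyp4d8 measured 424, 361 and 269 in sterile and 492, 485 and 385 in fertile abdomen, with -0.37, and was lower in sterile within each letter (adjusted p = 0.602 with the block). The well-known genes were also not called: Cyp4g1 measured 39524, 37914 and 28712 in sterile and 42533, 41154 and 29324 in fertile abdomen (-0.08), Cyp6g1 1025, 840.3 and 1418 in sterile and 1439, 643 and 1018 in fertile abdomen (0.12) and Cyp18a1 312, 265 and 249 in sterile and 302, 312 and 203 in fertile abdomen (0.03). Cyp4g1 was lower in sterile within each letter (adjusted p = 0.719 with the block), while Cyp6g1 and Cyp18a1 differed in sign between letters. Cyp12a4, linked to lufenuron resistance in D. melanogaster, measured 875, 898 and 996 in sterile and 867, 783 and 1017 in fertile abdomen, and Cyp12d1-d was below the filter.

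Cyp9f2 had probe sets that disagreed in abdomen. The brighter one, whose probes are shared between transcripts, measured 4429.7, 3871 and 3563 in sterile and 4124, 4417 and 4629.6 in fertile abdomen (-0.15, adjusted p = 0.826). The other measured 2587, 2806 and 2633 in sterile and 3873, 4639 and 4239 in fertile abdomen, with no overlap, and its log2 fold change of -0.66 (95% interval -0.96 to -0.37) had an unadjusted p of 0.000615 and an adjusted p of 0.0826. Neither was called. Both lay on the same side as the testis change of -0.88.

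Of the 40 P450 genes below the abdomen filter, the sterile arrays all lay above the fertile ones in 3 (Cyp28d2, Cyp6a17 and Cyp6a2). They all lay below them in 5 (Cyp4ac3, Cyp4d21, Cyp4e1, Cyp6t1 and Cyp9b1). None of these genes passed in a fit of all probe sets. Among all tested abdomen probe sets, the shares were 7.09% above and 7.02% below. The shares among all probe sets below the filter were not counted, so an excess of such P450 genes was not tested. Cyp28d2 and Cyp6a17 were singled out after their values were seen. Cyp28d2 measured 353.1, 225 and 347.5 in sterile and 48.6, 32.2 and 20.2 in fertile abdomen. The direction was that of testis, and in the fit of all probe sets the log2 fold change was 2.72, with an adjusted p of 0.0665 that did not pass. Cyp6a17, which affects temperature preference in D. melanogaster, measured 142, 156 and 104 in sterile and 30, 35.9 and 37.7 in fertile abdomen (1.56, adjusted p = 0.352). In testis it measured 165, 163 and 173 in sterile and 221, 216 and 208 in fertile testis, and it fell by 0.34 (adjusted p = 0.000193). The exact two-sided permutation p of each of these abdomen values was 0.1, the smallest that 3 against 3 arrays can give.

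**Figure D4:**
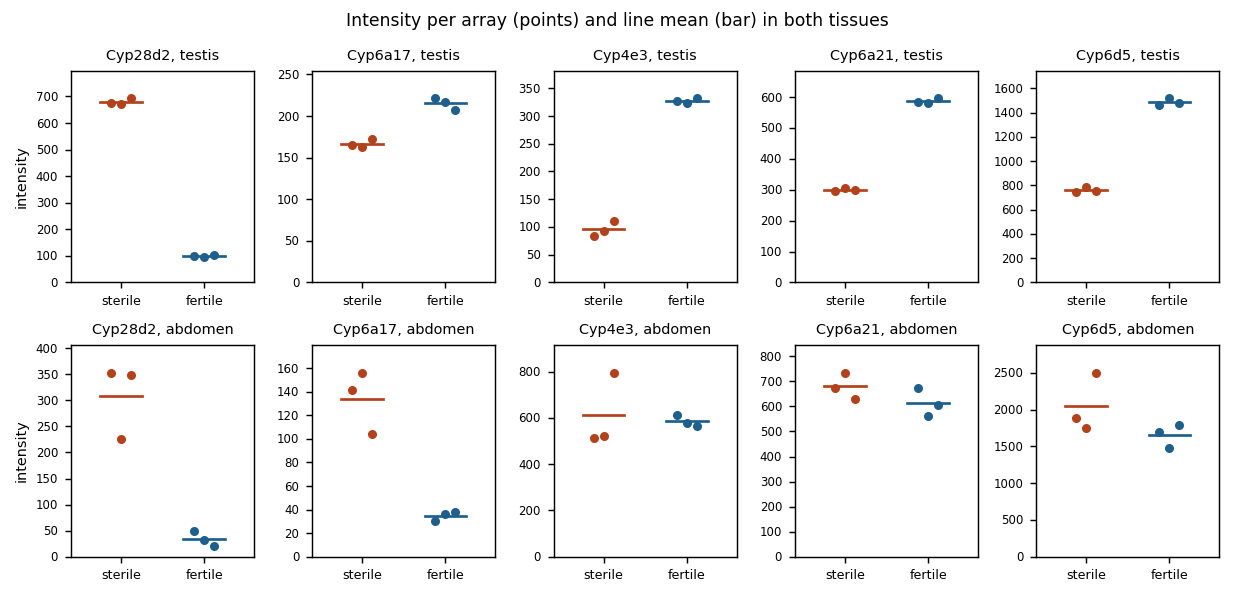
Intensity (y axis, from 0, own scale per panel) in testis (upper row) and abdomen (lower row) on 3 sterile and 3 fertile arrays for 5 P450 genes; points are arrays and bars are line means. Cyp28d2 is higher in the sterile line in both tissues, Cyp6a17 lies on opposite sides in the upper and the lower row, and Cyp4e3, Cyp6a21 and Cyp6d5 are separated by line in testis while they overlap in abdomen.

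Whether the line difference varied between tissues was tested for the 27 P450 genes that passed the filter in both. The fit took the log2 fold change in testis minus that in abdomen, and it called 3 of the 27, all below 0, against 3.88% of all 4774 genes (2.76% below 0). Cyp6d5 changed by -0.95 in testis and 0.29 in abdomen, a difference of -1.24 ± 0.19 (SE, limma adjusted p = 0.00072). Cyp6a21 changed by -0.93 in testis and 0.14 in abdomen, where it measured 674, 735 and 629.8 in sterile and 675, 562 and 604 in fertile abdomen, a difference of -1.08 ± 0.22 (adjusted p = 0.00939). Cyp4e3 changed by -1.63 in testis and 0.03 in abdomen, where it measured 514, 524 and 796 in sterile and 614, 576 and 567 in fertile abdomen, a difference of -1.66 ± 0.43 (adjusted p = 0.0382). As it passed the testis filter only through the fertile arrays, its testis fall was favoured by the filter.

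The call of Cyp4e3 ended when the second sterile testis array (adjusted p = 0.0557) or any single abdomen array was left out (adjusted p = 0.077 to 0.143). With the replicate letter as a block, 5 P450 genes were called, the same 3 together with Cyp4g1 (-0.32, adjusted p = 0.0244) and Cyp9f2 (-0.72, adjusted p = 0.0252). The Cyp9f2 difference rests on its brighter, shared abdomen probe set, at -0.15, whereas the other abdomen probe set changed by -0.66, close to the testis change of -0.88. On simulated data the weighted fit of both tissues made too many false calls, and a second fit, which combines the error of each tissue's own fit, did not. The simulated noise was independent between arrays, so an effect of the replicate letter was not covered. That fit, added after the data were seen, called Cyp4e3, Cyp6a21, Cyp6d5 and, by the same shared probe set, Cyp9f2 (3.27% of all genes). The other 24 genes were not called in the weighted fit, which does not show that they changed alike. Of the 19 genes in both that were lower in testis, 10 were below 0 in abdomen, and of the 3 higher in testis, 2 were above 0. A further 21 P450 genes were tested in testis alone, 14 in abdomen alone and 19 in neither.

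**Figure D5:**
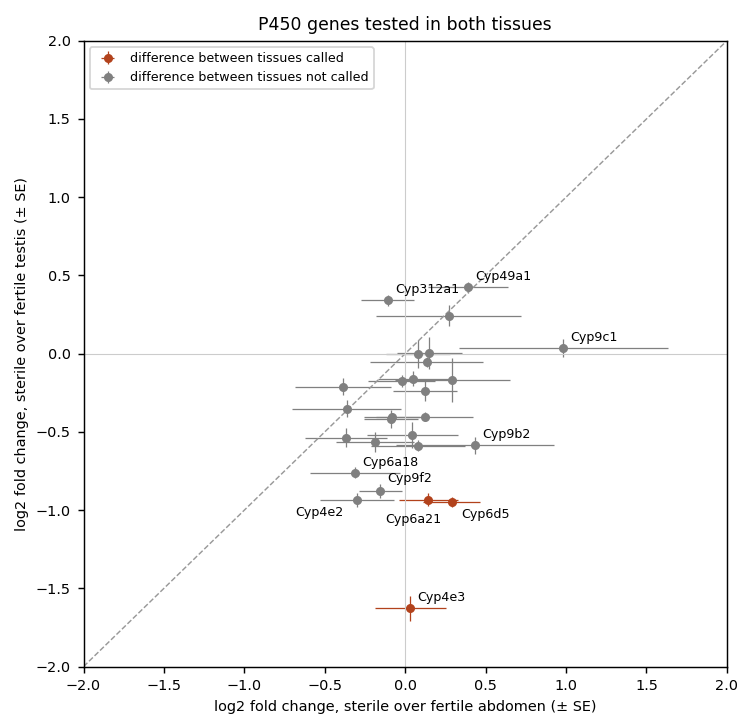
Testis log2 fold change, sterile over fertile (y axis), against that of abdomen (x axis) for the 27 P450 genes tested in both, with ± SE from each tissue's own fit over 3 arrays per line; the dashed line marks equal change and red points are called different between tissues. Cyp4e3, Cyp6a21 and Cyp6d5 lie far below the dashed line.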

How the data were processed

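The authors deposited intensity values on a linear scale for each array. Per the submitters' processing notes they are MAS5 signals, but 26 to 37 testis values per array lie below 0, which MAS5 signals do not reach, so how the testis values were made is not given in the sources used here. The authors' deposited table of the testis comparison also gives present calls as a percent of arrays, used for the filter, a signed fold score and a p-value. Its fold score was read as fertile over sterile, because the mean of its experiment side lay within 2% of the fertile mean for 99.7% of probe sets, and 12 columns of per-array values in it were not used. Probe sets had been designed for D. melanogaster, and mismatches to D. simulans were not corrected.

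Values below 0 were set to 0, and log2(intensity + 16) was fitted with limma 3.58.1 in R 4.3.3 (lmFit, eBayes with trend), each tissue alone. A fold change on this scale understates changes of dim genes. Testis probe sets needed present calls on all 3 arrays of a line (9927 of 18769), and abdomen probe sets a mean at or above the median of 13966 non-control probe sets (6983). A gene was its tested probe set with the highest mean. P-values were Benjamini-Hochberg adjusted over all tested probe sets. The number of arrays limits the precision. The difference between tissues was fitted on 4774 genes with array weights by tissue. Fits were tested on simulated data.

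The members and gene lists were chosen with earlier results of these data known. Genes named were those called in testis at 0.5 log2 or more in size, the 5 smallest p in abdomen, genes called between tissues with a difference of at least 1, genes that lost their call under a rescaling, and 5 well-known genes. Other members were named to account for each family, and were chosen after their values were seen. Replicate letters were checked for pairing by the correlation of same-letter deviations. These were -0.07, 0.15 and 0.05 in testis and 0.15, 0.29 and 0.26 in abdomen. In abdomen each lay above the correlations with other letters, and in testis the first did not. So few values do not settle whether the letters pair the samples. The main fits did not use the letters, and the replicate block was an alternative. Alternatives were 2 rescalings (median centring and quantile normalization), pseudocounts of 1 and 64, no filter and a stricter filter, no trend, the replicate block, averaged probe sets, equal weights and each array left out. No genome or sequence table of these genes was used here, so no position is given.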

Additional observations from a re-analysis of the deposited data

Results flagged for a closer look

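The fit of both tissues called the line difference of 3 P450 genes as unequal between them, as a testis minus abdomen difference of sterile over fertile: -1.66 for Cyp4e3, -1.24 for Cyp6d5 and -1.08 for Cyp6a21. Each was lower in sterile testis on all arrays and overlapped between lines in abdomen. This weighted fit made too many false calls on simulated data. The call of Cyp4e3, which passed the testis filter only through the fertile arrays, was lost in 10 of 21 alternatives, with an adjusted p of up to 0.143.

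In 3 further genes all sterile arrays lay on one side of the fertile arrays in testis and on the other side in abdomen, and these were not in that fit because they were below a filter. They were picked for this pattern, and their differences, from a fit without a filter, are descriptions. That fit called Cyp6a17 and did not call Cyp4e1 or Cyp4d21, but a call on genes picked this way does not test the pattern. The share of all genes with this pattern was not counted. Of all tested probe sets, the sterile arrays all lay below the fertile ones for 40% in testis and 7.02% in abdomen. They all lay above them for 24.3% in testis and 7.09% in abdomen. Cyp6a17 had a difference of -1.90, with 165.2, 163 and 173 in sterile and 221, 216 and 208 in fertile testis, but 142, 156 and 104 in sterile and 30, 35.9 and 37.7 in fertile abdomen. Cyp4e1 had a difference of 1.87, with 60.1, 50.6 and 41.7 in sterile and 34.9, 30.3 and 31.3 in fertile testis, and 95.3, 39 and 174 in sterile and 279, 232 and 280.4 in fertile abdomen. Cyp4d21 had a difference of 0.83, with 37.8, 37.2 and 40.6 in sterile and 32.1, 29.4 and 33.6 in fertile testis, and 99.4, 86.5 and 68.9 in sterile and 121, 159.7 and 141 in fertile abdomen. Both genes were called absent on all 6 testis arrays, so the size of these differences is set in part by the pseudocount and was not measured. The arrays of the tissues carry different probes for these genes.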

How the results depend on the processing

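Across the alternatives, 24 to 34 P450 genes were lower and 6 to 11 higher in sterile testis, with 34 and 11 of 81 without a filter and 24 and 6 of 37 with the stricter one, and no called gene changed direction. With 1 array left out the counts were 27 to 29 lower and 8 to 9 higher. Both rescalings gave 27 lower and 9 higher and ended the calls of Cyp4g15 and Cyp12c1. Cyp6a2 in testis passed without the variance trend (adjusted p = 0.0295). In abdomen 0 P450 genes were called under every alternative run. Of the small, uncalled abdomen changes, Cyp4g1 turned to 0.053 after quantile normalization. With single arrays left out it ranged from -0.26 to 0.059, Cyp6g1 from -0.18 to 0.39 and Cyp18a1 from -0.15 to 0.14. The abdomen changes with the smallest p also moved in size when single arrays were left out. Cyp4d20 ranged from 0.24 to 0.50, Cyp6d5 from 0.14 to 0.39 and Cyp49a1 from 0.17 to 0.57. Cyp9c1 ranged from 0.51 to 1.63 and Cyp4d8 from -0.51 to -0.20. The count for the difference between tissues was 2 to 4 with 1 array left out and 5 with the replicate block. The block changed no other call of P450 genes: testis kept 29 lower and 9 higher, with all 38 called genes shared, and abdomen 0. The Cyp4e3 difference also failed with a pseudocount of 1 (-1.81, adjusted p = 0.0508), without a filter (adjusted p = 0.0703) and without the trend (adjusted p = 0.0617). With Cyp1 and Cyp40 counted, an alternative chosen after seeing the data, the testis counts were those of the P450 genes with Cyp1 added to the lower ones.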
